A study of Mus musculus with 4 samples.

Results

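The collagen genes of the mouse were followed in embryonic head and palatal shelves with and without Tbx1, a T-box transcription factor gene needed for the pharyngeal apparatus. Members were all genes whose single symbol has the form Col, number, a, number, and 44 of the 22180 genes with 1 symbol on the array met this rule. There were 11 fibrillar, 9 network, 9 FACIT (fibril-associated), 4 transmembrane and 6 beaded filament chains, 1 anchoring fibril chain, 2 multiplexins and 2 others. Each of 4 groups was 1 Affymetrix Mouse Gene 2.0 ST array: Tbx1 knockout (KO) palatal shelves at E13.5, wild-type (WT) palatal shelves at E13.5, KO head at E12.5 and WT head at E12.5, where E is the embryonic day. All embryos had a mixed C57BL/6J x FVB/N background. The sources used here do not say which part of Tbx1 was deleted, in which cells, or whether embryos were pooled, so the KO arrays are described by their label alone. One label field calls the E13.5 samples heads too, and their titles, which name palatal shelves, were followed.

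Values are log2 expression, so a difference of 1 is a 2-fold difference, and they are compared between arrays for 1 gene, not between genes. A gene entered a comparison when its highest array there reached 6.16, the median level of named genes. With 1 array a group, a KO minus WT difference within a tissue has no replicate check and no p-value, and so few arrays limit the precision. Tbx1 read 6.18 in KO shelves and 7.39 in WT shelves, and 6.25 in KO head and 6.83 in WT head. Osr2, a transcription factor of palatal mesenchyme, read 11.15 and 10.99 in KO and WT shelves and 9.46 and 9.43 in KO and WT head. Shelf arrays also carried signal of bone and nerve: the bone matrix gene Ibsp read 11.29 and 11.37 in KO and WT shelves against 5.12 and 4.87 in KO and WT head, and the neuronal tubulin gene Tubb3 read 8.46 and 7.88 in shelves against 10.40 and 10.40 in head.

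Collagens are matrix proteins built of 3 chains wound into a helix. Fibrillar collagens form the banded fibrils of skin, bone and cartilage, and FACIT collagens lie along those fibrils and join them to other matrix. Network collagens form sheets such as the basement membrane, transmembrane collagens sit in the cell surface, and collagen VI forms beaded filaments around cells. In the palatal shelves, collagens are laid down by the mesenchyme, by the cells that begin to form bone and, in basement membranes, by epithelium and vessels.

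Promoter sequences are shown for the member of each of the 4 main types with the largest shelf minus head difference among those whose RefSeq promoter lies at the gene's outermost start, and for Col1a2 and Col3a1, major fibrillar chains. They were chosen after values were seen. Each line gives the 250 bases before the RefSeq start in GRCm38.p6, 5′ to 3′ on the gene's strand. Capitals mark 3 motifs searched on both strands. The CCAAT box was searched as CCAAT, which on the other strand reads ATTGG. The TATA box was searched as TATAAA and its reverse complement, and the GC box as GGGCGG and its reverse complement. No letters were shared between matches of different motifs in the windows shown.
Col1a2, chr6:4505368-4505617, plus strand: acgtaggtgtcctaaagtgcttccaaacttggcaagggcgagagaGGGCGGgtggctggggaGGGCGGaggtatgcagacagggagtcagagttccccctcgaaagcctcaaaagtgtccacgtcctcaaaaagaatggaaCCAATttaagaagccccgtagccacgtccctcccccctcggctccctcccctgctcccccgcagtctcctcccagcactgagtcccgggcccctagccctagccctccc
Col3a1, chr1:45311288-45311537, plus strand: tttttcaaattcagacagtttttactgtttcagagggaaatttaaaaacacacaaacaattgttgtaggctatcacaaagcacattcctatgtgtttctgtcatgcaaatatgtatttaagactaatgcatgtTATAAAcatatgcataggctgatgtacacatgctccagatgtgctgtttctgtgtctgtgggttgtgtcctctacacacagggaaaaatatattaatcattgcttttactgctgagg
Col24a1, chr3:145292222-145292471, plus strand: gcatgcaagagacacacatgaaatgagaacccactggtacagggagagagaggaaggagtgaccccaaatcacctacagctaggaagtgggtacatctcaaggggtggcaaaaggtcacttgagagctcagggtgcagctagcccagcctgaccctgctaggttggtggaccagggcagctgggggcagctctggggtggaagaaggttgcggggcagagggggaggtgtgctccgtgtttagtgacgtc
Col8a1, chr16:57754738-57754987, minus strand: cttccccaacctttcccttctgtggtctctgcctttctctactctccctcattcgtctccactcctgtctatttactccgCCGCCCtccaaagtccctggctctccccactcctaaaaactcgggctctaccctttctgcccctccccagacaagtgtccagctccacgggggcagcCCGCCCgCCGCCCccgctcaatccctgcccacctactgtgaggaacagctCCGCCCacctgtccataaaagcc
Col9a2, chr4:121039316-121039565, plus strand: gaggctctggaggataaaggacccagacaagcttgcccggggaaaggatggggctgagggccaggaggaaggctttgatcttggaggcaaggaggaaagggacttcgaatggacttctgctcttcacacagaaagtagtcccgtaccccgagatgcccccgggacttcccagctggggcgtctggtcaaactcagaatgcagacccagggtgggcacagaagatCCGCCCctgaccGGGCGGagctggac
Col17a1, chr19:47692043-47692292, minus strand: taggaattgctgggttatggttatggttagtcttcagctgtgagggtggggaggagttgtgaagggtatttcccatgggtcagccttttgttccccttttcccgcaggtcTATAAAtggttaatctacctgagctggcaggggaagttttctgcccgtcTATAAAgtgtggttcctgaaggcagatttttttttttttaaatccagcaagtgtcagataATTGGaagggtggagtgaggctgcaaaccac

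Of the 44 collagen genes, 35 had at least 1 RefSeq promoter, 38 in all. The GC box, which Sp1 binds, was in 22 of these 38 (57.9%) against 32.7% of all 32851 RefSeq promoters of the same length. The CCAAT box was in 13 (34.2%) against 33.8% of all, and the TATA box in 5 (13.2%) against 12.4%. Among the windows shown, Col8a1 held 4 GC boxes, and Col1a2 held 2 and a CCAAT box 109 bases before its start. Col17a1 held 2 TATA boxes and no GC box, and Col24a1 held none of the 3 motifs. The median GC content was 59% in collagen promoters and 52.4% in all promoters. A match describes these letters and not a bound site.

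Between genotypes, no collagen gene reached a 1.5-fold difference in either tissue. In the head, 31 members entered and 0 were at least 1.5-fold higher or lower in KO, where 0.106% of all 11364 genes were that much higher and 0.352% that much lower. In the shelves, 34 members entered and again 0 passed 1.5-fold either way, against 1.91% of all 11449 genes higher and 1.34% lower. At 2-fold the count was also 0, with 0.0352% of all genes higher and 0.0528% lower in the head, and 0.463% higher and 0.472% lower in the shelves. The member differences ran from -0.20 to 0.29 in the head, with a median of 0.029 (-0.017 over all genes). They ran from -0.46 to 0.30 in the shelves, with a median of 0.11 (0.021 over all genes). Above 0 were 20 of 31 members in the head (44.5% of all genes) and 23 of 34 in the shelves (55.2% of all genes). Col11a2 in the head and Col6a6 in the shelves entered through the KO array alone, so their signs there were fixed by entry.

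An additive limma fit of genotype and tissue over all 4 arrays, which reads the KO minus WT difference over both tissues, called 0 of 34 collagen genes after Benjamini-Hochberg adjustment over 11999 genes (0.00% of all genes were called). At an unadjusted limma p under 0.05 stood 1 member, Col1a1, against 5.23% of all genes. The fit has 1 residual degree of freedom, so its p-values rest mostly on a spread shared by all genes and describe these arrays. That residual is the disagreement between the tissues in the KO minus WT difference. Its SEs and p-values, for genotype and for tissue, thus do not measure spread between embryos. KO lay above WT in both tissues for 15 of the 34 members (25.8% of all genes), below WT in both for 5 (25.3% of all genes), and in opposite directions for the other 14.

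**Figure D1:**
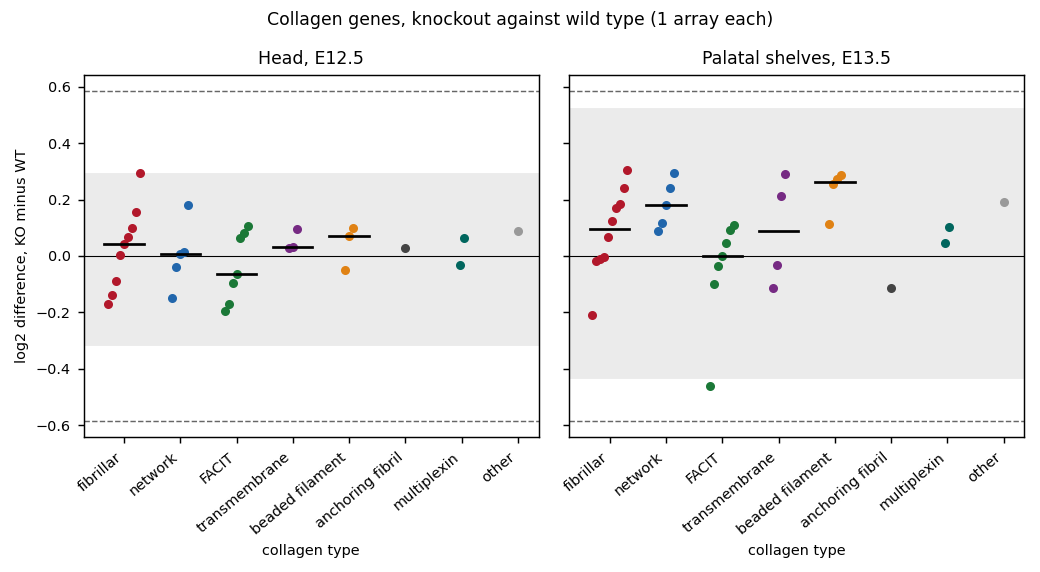
Log2 difference KO minus WT (y axis) of each collagen gene that entered, by collagen type (x axis), in the E12.5 head (left) and the E13.5 palatal shelves (right), 1 array per genotype. Points are genes, black bars are medians of types with 3 or more genes, grey bands hold the central 95% of all genes and dashed lines mark 1.5-fold. No point crosses a dashed line, and Col9a2 at -0.46 is the lowest point in the shelves.

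Col1a1 and Col1a2 are the chains of collagen I, the main fibril protein of bone and skin. Col1a1 read 11.51 in KO shelves and 11.27 in WT shelves, and 10.77 in KO head and 10.47 in WT head. KO was thus the higher array in both tissues, by 0.24 in the shelves and 0.29 in the head, where Col1a1 lay at percentile 97.7 of all genes. Over both tissues it differed by 0.27 (SE 0.10, limma adjusted p 0.919). Its partner chain Col1a2 read 9.48 in KO shelves and 9.18 in WT shelves, but 8.49 in KO head and 8.66 in WT head, the average of 2 transcript clusters. By this average KO was higher in the shelves (0.30) and lower in the head (-0.17), while by the brighter cluster the differences were 0.15 and 0.06. Col3a1, the fibrillar chain of soft tissue and vessel walls, read 10.57 in KO shelves and 10.50 in WT shelves, and 9.93 in KO head and 9.87 in WT head, 0.07 apart in each tissue. Col2a1, the main cartilage collagen, was at -0.01 in the shelves and -0.14 in the head, and Col11a1, its partner in cartilage fibrils, at -0.02 and 0.003. Of the other fibrillar chains in the shelves, Col27a1 (0.18), Col24a1 (0.17) and Col5a2 (0.12) were above 0, Col5a1 was at -0.003 and Col11a2 at -0.21. The median of the fibrillar members that entered was 0.096 in the shelves (10 genes) and 0.041 in the head (9 genes). The head median includes Col11a2, which read 6.20 in KO head and 6.05 in WT head, so its sign there was fixed by entry.

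Network chains that entered were all above 0 in KO shelves, by 0.09 to 0.29 (5 genes, median 0.18), against 55.2% of all genes. In the head they lay on both sides of 0 (median 0.008, and -0.01 with each array centred on its median). Col4a1 and Col4a2, the chains of every vascular and epithelial basement membrane, have RefSeq starts 21 bases apart on opposite strands of chromosome 8. Col4a1 read 8.002 in KO shelves and 7.71 in WT shelves, and 7.88 in KO head and 7.86 in WT head. Col4a2 read 7.98 and 7.87 in KO and WT shelves, and 7.89 and 7.88 in KO and WT head. Both chains differed by 0.01 in the head, and in the shelves Col4a1 stood further above WT (0.29) than Col4a2 (0.12). Of the short-chain network collagens, Col8a1 was at 0.18 in the shelves and -0.04 in the head, and Col8a2 at 0.09 and 0.18. Col4a5, a chain of specialised basement membranes, was at 0.24 in the shelves and -0.15 in the head. Of the endothelial markers, 4 of 5 were above 0 in KO shelves (55.2% of all genes), with a median of 0.23 (Kdr, a VEGF receptor, 0.49, and Pecam1, 0.23). Their mean level was 8.88 in KO shelves and 8.65 in WT shelves. Their part in the collagen IV values was not tested.

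FACIT chains lay around 0 in KO shelves (7 genes, median -0.001, and 0.016 with each array centred on its median), and their median in the head was -0.065, which turned to 0.064 with the upper-quartile filter on low values. Col9a2, a chain of collagen IX on the surface of cartilage fibrils, had the largest difference of any collagen gene that entered. It read 7.86 in KO shelves and 8.32 in WT shelves, and 7.61 in KO head and 7.68 in WT head. The WT shelf array was thus the high one, and the shelf difference of -0.46 lay at percentile 2.21 of all genes. The other chains of collagen IX in the shelves were Col9a1 at -0.10 and Col9a3 at -0.001. In the head all 3 chains were below 0, from -0.20 to -0.06, where 44.5% of all genes were above 0. Over both tissues Col9a2 had a limma difference of -0.26 (SE 0.13, adjusted p 0.927). Of the chondrocyte markers, 3 of 5 were below 0 in KO shelves, Cnmd at -0.25 and Acan at -0.18 among them. Sox9 was at 0.32 and the median was -0.0005, where 55.2% of all genes were above 0. The mean level of the 7 measured markers was 7.21 in KO shelves and 7.21 in WT shelves, and Snorc and Comp were below the limit on all arrays. Their part in the Col9a2 value was not tested. Col12a1 and Col14a1, FACITs of tendon and fascia, were at 0.05 and 0.09 in the shelves, Col20a1 at 0.11 and Col16a1 at -0.04.

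The 4 beaded filament chains that entered were all above 0 in KO shelves (median 0.26), against 55.2% of all genes. Col6a6 entered through the KO shelf array alone, so its sign there was fixed by entry. The median in the head was 0.07 (3 genes). Col6a1 read 8.57 in KO shelves and 8.29 in WT shelves, and 7.60 in KO head and 7.53 in WT head. Col6a2 read 9.17 and 8.92 in KO and WT shelves, and 8.10 and 8.15 in KO and WT head. Col6a3 read 9.26 and 8.98 in KO and WT shelves, and 8.10 and 8.003 in KO and WT head. The chains Col6a1, Col6a2 and Col6a3 assemble into 1 molecule, and their shelf differences of 0.27, 0.25 and 0.29 lay between percentiles 88.0 and 90.6 of all genes. In the head their differences were 0.07, -0.05 and 0.10. The adjusted limma p for genotype was 0.937 to 0.983 for these 3 genes.

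Transmembrane chains differed among themselves in KO shelves. Col17a1, the hemidesmosome collagen that anchors basal epithelial cells, read 8.24 in KO shelves and 7.95 in WT shelves (difference 0.29), and 6.63 in KO head and 6.53 in WT head (0.10). Col25a1, needed in mouse for motor nerves to innervate muscle, read 7.80 in KO shelves and 7.59 in WT shelves (0.21), and 6.99 in KO head and 6.96 in WT head (0.03). Col13a1, a collagen of the neuromuscular junction, was at -0.11 in the shelves and Col23a1 at -0.03. The epithelial markers, by contrast with Col17a1, were below 0 in 4 of 5 in KO shelves (median -0.091, Epcam -0.42, Krt14 -0.09), with a mean level of 8.32 in KO shelves and 8.43 in WT shelves. Neuronal markers were above 0 in 5 of 6 (median 0.52). Skeletal muscle markers were below 0 in 5 of 5 (median -1.34), with a mean level of 5.96 in KO shelves and 7.18 in WT shelves. Myog, Mylpf and Ttn reached the limit on the WT shelf array alone, so their sign was fixed by entry. Actc1 (-1.68) and Myh3 (-1.12) were above the limit on both shelf arrays. Of all genes in the shelves, 55.2% were above 0. The part of the neuronal and muscle markers in the values of Col25a1 and Col13a1 was not tested. The anchoring fibril chain Col7a1 was at -0.11 in the shelves and 0.03 in the head, and the multiplexins Col15a1 and Col18a1, basement membrane collagens that carry glycosaminoglycan chains, were between -0.03 and 0.10 in both tissues. Col26a1 was at 0.19 in the shelves and 0.09 in the head.

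Most collagen chains were higher in the palatal shelves than in the head, led by Col8a1 (3.64-fold), Col17a1 (2.86-fold), Col14a1 (2.80-fold) and Col24a1 (2.40-fold), while the collagen IV chains of basement membranes did not pass the test. In the additive limma fit, 22 of 34 collagen genes were higher in the E13.5 palatal shelves than in the E12.5 head at an adjusted p under 0.05, and 0 were lower, against 13.0% of all 11999 genes higher and 14.9% lower. As for genotype, these p-values do not measure spread between embryos. An unadjusted limma p under 0.05 was reached by 25 of the 34, against 40.2% of all genes. For shelves against head, a gene is said below to rise or fall only where it passed at an adjusted p under 0.05. The median shelf minus head difference of the members was 0.57, against -0.02 over all genes. Both shelf arrays lay above both head arrays for 29 of the 34 members (31.9% of all genes), and below both for 1, Col2a1 (37.1% of all genes). At least 1.5-fold higher in the shelves were 16 of 34 members between KO arrays (7.74% of all genes) and 19 of 33 between WT arrays (7.39% of all genes), 14 of them in both genotypes. At least 1.5-fold lower were 0 members, against 8.67% of all genes between KO arrays and 10.3% between WT arrays. Entry through the highest array favours genes that are high in 1 tissue: 3 of the 34 reached the limit in shelf arrays only (Col24a1, Col13a1 and Col6a6), and of the 31 that reached it in both tissues 20 passed. The share of all genes for that subset is not given here. Between WT arrays Col24a1, Col13a1 and Col11a2 entered through the shelf array alone, so their sign there was fixed by entry. Tissue and stage cannot be told apart here, and in bulk tissue fewer cells of a type cannot be told apart from less RNA per cell.

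**Figure D2:**
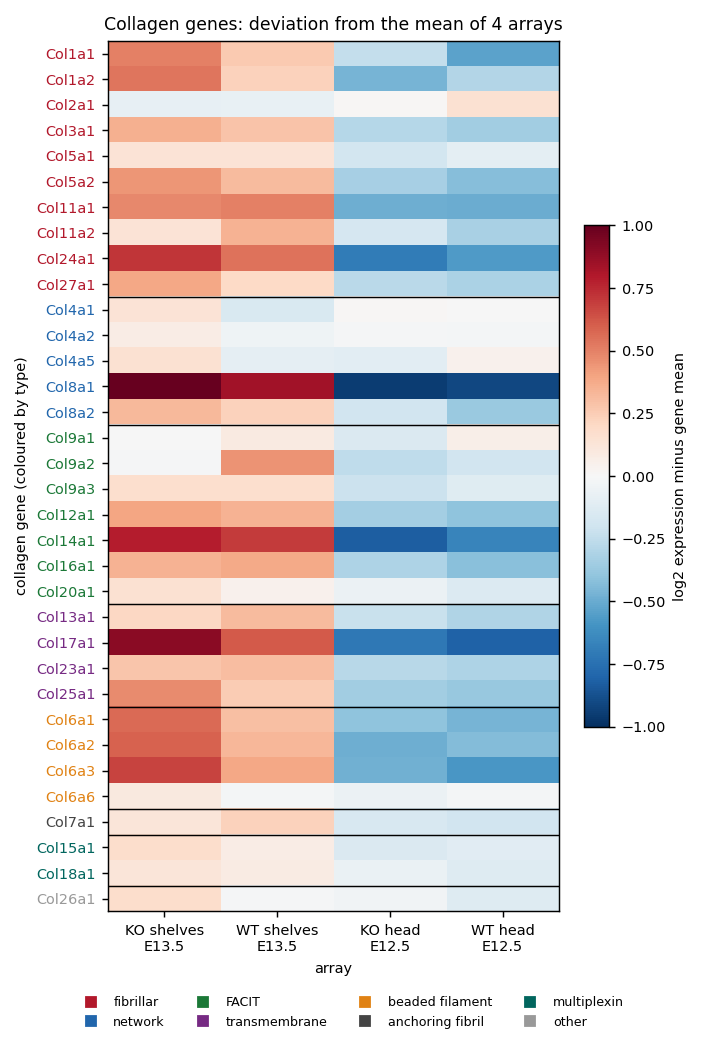
Log2 expression minus the gene's mean over 4 arrays (colour) for the 34 collagen genes of the additive fit (rows, names coloured by type) in KO shelves, WT shelves, KO head and WT head (columns, 1 array each). Red is above and blue below the gene's mean. Most rows are red in both shelf columns and blue in both head columns. Among the pale rows are Col4a1, Col4a2, Col4a5, Col2a1 and Col6a6, and also Col9a1, Col18a1, Col20a1 and Col26a1.

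Of the 10 fibrillar chains, 9 were above 0 in the shelves relative to the head (47.2% of all genes), and 8 rose by the adjusted p. The largest rise was that of Col24a1, a minor fibrillar chain of developing bone, which read 7.32 in KO shelves and 7.15 in WT shelves, against 5.90 in KO head and 6.04 in WT head, a 2.40-fold difference (log2 1.26, SE 0.12, limma adjusted p 0.000527). Both head values of Col24a1 were dim, under the limit of 6.16, so its fold may be understated. Col11a1 was 1.98-fold higher, with 9.26 and 9.28 in KO and WT shelves against 8.28 in both head arrays. The collagen I chains moved by nearly the same amount, Col1a1 by 0.77 (SE 0.10) and Col1a2 by 0.76 (SE 0.14), and Col3a1 (0.64) and Col5a2 (0.76), neighbours on chromosome 1, rose too. Col5a2 read 9.25 in KO shelves and 9.13 in WT shelves, against 8.48 in KO head and 8.38 in WT head. Col27a1, a fibrillar chain of developing cartilage, rose by 0.59, and Col5a1 (0.28, limma adjusted p 0.0854) did not pass. Col11a2, which joins Col11a1 in the heterotypic molecule, rose by 0.49 (SE 0.12, limma adjusted p 0.027), a call lost with quantile normalization (0.0589) and without the filter on low values (0.0804). Col2a1 read 8.24 and 8.25 in KO and WT shelves against 8.33 and 8.47 in KO and WT head (log2 -0.16, SE 0.10, limma adjusted p 0.299). Of the 5 chondrocyte markers in the fit, Acan (0.99), Hapln1 (1.13), Matn1 (0.73) and Cnmd (0.41) rose and Sox9 (-0.79) fell. Matn1 reached the limit in shelf arrays only.

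The network chains were divided. Col8a1, a short-chain collagen of endothelium and mesenchyme, had the largest rise of all members, 3.64-fold, with 9.48 in KO shelves and 9.30 in WT shelves against 7.50 in KO head and 7.54 in WT head (log2 1.87, SE 0.11, limma adjusted p 0.000124). Its partner Col8a2 was 1.47-fold higher (log2 0.56, limma adjusted p 0.0077). The 3 collagen IV chains in the fit lay at -0.01 (Col4a1), 0.04 (Col4a2) and 0.06 (Col4a5), each with an SE of 0.10 to 0.13 and a limma adjusted p of 0.757 to 0.94. Endothelial and epithelial markers, from tissues that make basement membrane, had median shelf minus head differences of 0.30 and 1.24. Above 0 were 4 of 5 endothelial and 5 of 5 epithelial markers (47.2% of all genes). Of these, 1 endothelial marker, Emcn, and all 5 epithelial markers passed at an adjusted p under 0.05. Of the epithelial markers, Cdh1 reached the limit in shelf arrays only.

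All 7 FACIT chains were above 0 in the shelves relative to the head (47.2% of all genes), and 4 rose by the adjusted p. Col14a1 was 2.80-fold higher (log2 1.48, SE 0.11, limma adjusted p 0.000263), with 8.77 and 8.68 in KO and WT shelves against 7.16 and 7.33 in KO and WT head. Col12a1 was 1.67-fold higher, with 10.57 and 10.52 in KO and WT shelves against 9.83 and 9.77 in KO and WT head. Col16a1 was 1.66-fold higher, and Col20a1 (0.19) did not pass. Collagen IX stood near the threshold, with Col9a2 at 0.44 (limma adjusted p 0.0419, and 0.0628 to 0.113 under 3 of the alternative settings), Col9a3 at 0.33 (0.0518) and Col9a1 at 0.09 (0.568). For Col9a2 the shelf minus head difference was 0.24 between KO arrays and 0.64 between WT arrays, the same 4 values as its genotype differences.

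**Figure D3:**
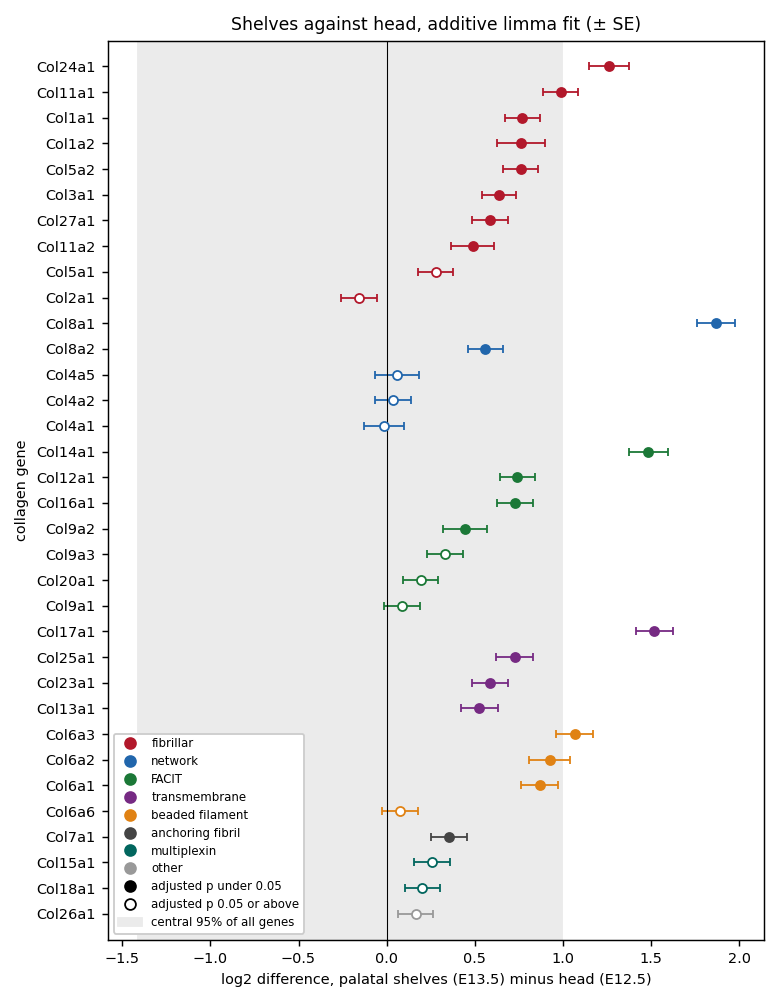
Log2 difference of palatal shelves (E13.5) minus head (E12.5), ± SE of the additive limma fit on 4 arrays (x axis), for 34 collagen genes (y axis, grouped by type and ordered by size). Filled points passed an adjusted p of 0.05, open points did not, and the grey band holds the central 95% of all genes. Col8a1, Col17a1, Col14a1 and Col24a1 lie furthest right and the collagen IV chains lie at 0.

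All 4 transmembrane chains rose in the shelves. Col17a1 was 2.86-fold higher (log2 1.52, SE 0.11, limma adjusted p 0.000204). Col25a1 rose by 0.73, Col23a1 by 0.59 and Col13a1 by 0.52. Col13a1 read 6.10 in KO head and 6.03 in WT head, under the limit, so it entered through shelf arrays only. The beaded filament chains Col6a3, Col6a2 and Col6a1 rose by 1.07, 0.92 and 0.87 (SE 0.11 to 0.12), whereas Col6a6 read 6.22 and 6.10 in KO and WT shelves against 6.06 and 6.10 in KO and WT head and did not pass (0.08). Col7a1 rose by 0.35 (limma adjusted p 0.0451), a call lost under 6 alternative settings (0.0565 to 0.130), while Col15a1 (0.26), Col18a1 (0.20) and Col26a1 (0.16) did not pass. Over the types, the median difference of members that entered was 0.90 for beaded filament, 0.70 for fibrillar, 0.66 for transmembrane, 0.44 for FACIT and 0.06 for network chains, and the ranges of these types overlapped. These medians give no stable order: beaded filament was at 0.47 without the filter on low values, FACIT at 0.74 with the upper-quartile filter, and network at 0.50 by the mean.

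Several lists of cell type markers moved with the same contrast, for which 13.0% of all genes rose and 14.9% fell at an adjusted p under 0.05. The osteoblast marker Ibsp, the epithelial marker Cdh1 and the chondrocyte marker Matn1 reached the limit in shelf arrays only. Such entry favours a rise. Median shelf minus head differences were 2.03 for osteoblast markers (3 of 3 rose, with Bglap and Dmp1 below the limit on all arrays), 1.24 for epithelial, 0.81 for mesenchymal (4 of 5 rose), 0.73 for chondrocyte (4 of 5 rose and Sox9 fell) and -1.57 for neuronal markers (6 of 6 fell). Other lists moved less or were split: endothelial markers were at 0.30 (1 of 5 rose) and pericyte and smooth muscle markers at 0.47 (3 of 5 rose and 1 fell). Skeletal muscle markers were at -0.14 (0 rose and 1 of 5 fell). Schwann cell markers were at -0.25 (1 of 2 fell, Sox10, which reached the limit in head arrays only). The mean level of the 5 measured mesenchymal markers was 10.02 and 9.95 in KO and WT shelves against 9.12 and 9.14 in KO and WT head. That of the 6 neuronal markers was 8.22 and 7.75 in shelves against 9.82 and 9.80 in head. The part of these cell types in the collagen differences was not tested.

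The members below the limit for entry were Col5a3, Col4a3, Col4a4, Col4a6, Col10a1, Col19a1, Col22a1, Col6a4, Col6a5 and Col28a1, 10 genes with array values from 3.69 to 6.02. Col10a1, the collagen of hypertrophic cartilage, read 4.62 in KO shelves and 4.91 in WT shelves, and 4.47 in KO head and 4.66 in WT head. Just outside the limit lay Col22a1, at most 6.02, and Col5a3, also at most 6.02, and just inside it Col6a6, at most 6.22. Such dim values hold little information on differences.

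Genes that modify, export, cross-link, bind or cleave collagen were mostly higher in the shelves than in the head. Of 59 such genes listed, 54 were measured. For tissue and stage, 34 of 50 in the fit were higher in the shelves (13.0% of all genes) and 1, Itga11, was lower (14.9% of all genes). Of the 50, 5 reached the limit in shelf arrays only (Colgalt2, Loxl4, Omd, Mmp9 and Mmp13), and 31 of the other 45 were higher. For genotype over both tissues, 0 of 50 passed. In the head 0 of 45 were at least 1.5-fold higher in KO (0.106% of all genes) or lower (0.352%), and the largest differences were those of Creb3l2 (-0.29), a transcription factor for secretory genes, and Mrc2 (0.29), a collagen uptake receptor. In the shelves 3 of 50 were at least 1.5-fold higher (1.91% of all genes) and 1 was lower (1.34% of all genes). P4ha2, the catalytic subunit of a prolyl 4-hydroxylase that stabilises the helix, read 8.09 in KO shelves and 7.10 in WT shelves, and 6.37 in KO head and 6.41 in WT head. P4ha1, its close relative, read 9.84 in KO shelves and 9.15 in WT shelves, and 8.57 in KO head and 8.59 in WT head. Colgalt2, a galactosyltransferase of hydroxylysine, read 6.26 in KO shelves and 5.65 in WT shelves, and entered through the KO shelf array alone. For P4ha1, P4ha2 and Colgalt2 the shelf differences of 0.69, 0.998 and 0.60 lay at or above percentile 98.2 of all genes, and the head differences of P4ha1 and P4ha2 were -0.02 and -0.04. Colgalt2 was below the limit on both head arrays. Other genes of the same steps differed less in the shelves, among them Plod1, a lysyl hydroxylase (0.48), P3h4 (0.39), the prolyl hydroxylase partner P4hb (0.08) and the collagen chaperone Serpinh1 (0.02).

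**Figure D4:**
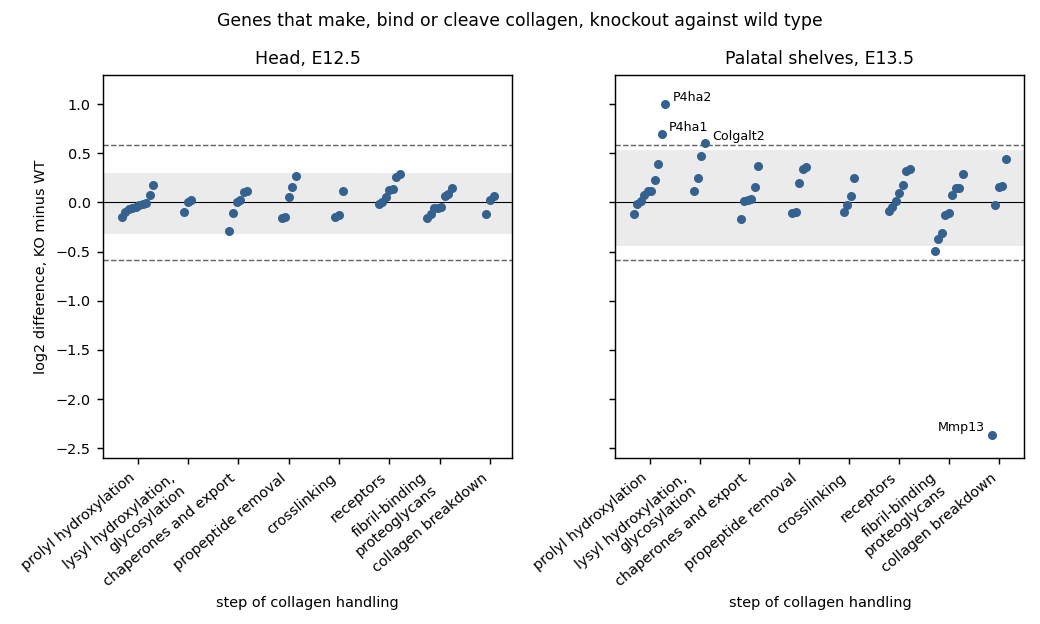
Log2 difference KO minus WT (y axis) of genes that act on collagen, by step (x axis), in the E12.5 head (left) and the E13.5 palatal shelves (right), 1 array per genotype. Points are genes that entered, grey bands hold the central 95% of all genes and dashed lines mark 1.5-fold. P4ha2, P4ha1 and Colgalt2 lie above the upper line and Mmp13 below the lower line in the shelves, and no gene crosses a line in the head.

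The 1 gene at least 1.5-fold lower in KO shelves was Mmp13, a collagenase of bone and cartilage that cleaves fibrillar collagen, at 4.04 in KO shelves and 6.40 in WT shelves. Its reading was 3.92 in KO head and 3.82 in WT head, so the WT shelf array alone was above the limit. The gelatinase gene Mmp9 was at 0.44 in the shelves, and the collagenase Mmp14 at 0.17. Of 9 proteoglycans that coat fibrils, 5 were below 0 in KO shelves, Kera (-0.49), Dcn (-0.37) and Omd (-0.31) among them. Above 0 were 4, Prelp (0.29) and Bgn (0.14) among them, against 55.2% of all genes. In the shelves Prelp reached the limit on the KO array alone, so its sign there was fixed by entry. Lysyl oxidase genes, whose products cross-link fibrils, differed by -0.09 (Lox) to 0.25 (Loxl1) in KO shelves. In the shelves relative to the head, Loxl1 rose by 1.04, Lox by 0.75, Loxl3 by 0.41 and Loxl4, which reached the limit in shelf arrays only, by 0.42.

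Col1a2, Col5a1 and Col6a1 were read by 2 transcript clusters each, and averaging them mattered. For Col1a2 the brighter cluster read 10.99 and 10.84 in KO and WT shelves and 10.27 and 10.22 in KO and WT head, and the dimmer one 7.98 and 7.52 in shelves and 6.70 and 7.09 in head. The KO minus WT difference in the head was thus 0.06 by the brighter cluster and -0.40 by the dimmer one, and their average made the -0.17 given above. For Col5a1 the brighter cluster rose by 0.51 in the shelves relative to the head, while the dimmer one, below the limit, differed by 0.04. With the brighter cluster alone, Col5a1 passed for tissue and stage (limma adjusted p 0.0138), which it did not with the average (0.0854). For Col6a1 the brighter cluster read 10.30 in KO shelves and 9.87 in WT shelves, a difference of 0.43 against 0.27 for the average.

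**Figure D5:**
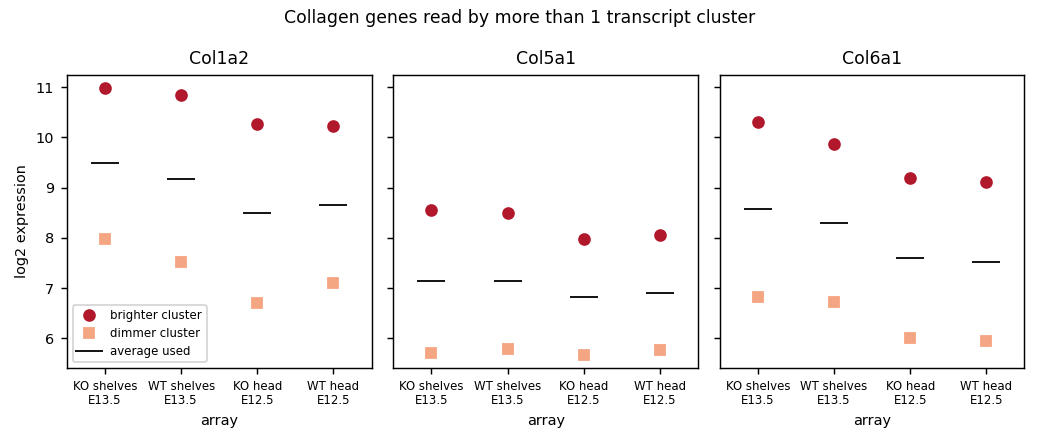
Log2 expression (y axis) of the transcript clusters of Col1a2, Col5a1 and Col6a1 in KO shelves, WT shelves, KO head and WT head (x axis, 1 array each). Circles are the brighter and squares the dimmer cluster, and bars are the average used. The dimmer Col5a1 cluster stays near 5.7 on every array.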

How the data were processed

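RNA of 4 samples was measured on 1 array each. The authors deposited log2 values for each transcript cluster, and the submitters' processing notes name RMA in Affymetrix Expression Console. Software versions, genome build and annotation release: not given in the sources used here. By design, RMA brings arrays to 1 common distribution and compresses folds of dim genes. Arrays carry no read depth.

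Gene names came from GEO's platform annotation. Of 41345 clusters, 23521 had 1 symbol, 1814 several and 16010 none, and 23328 matched RefSeq by Entrez identifier. Clusters of a gene were averaged, giving 22180 genes. 1 cluster naming Col6a1 beside other genes was not used. The members and gene lists were chosen with earlier results of these data known, and 5 of the 59 listed collagen-handling genes were not analysed here. Per-array values were to be given for members called in a comparison and the main chains of a type, and other listed genes named where at least 1.5-fold different or largest in a pair; the remaining listed genes and markers named were chosen after their values were seen. Pair differences have no test. The additive model of genotype and tissue was fitted with limma 3.58.1 (R 4.3.3) over 11999 genes, with 5.49 prior degrees of freedom and Benjamini-Hochberg adjustment, two-sided. Tested on simulated data, it recovered most large planted differences and few small ones, and the share of false calls was above the nominal level. Small genotype differences could thus go uncalled, and calls near the threshold are uncertain. Changes were planted in few genes, whereas many genes passed for tissue in the data, so the simulated rates do not carry over to that contrast. Alternatives were 3 other scalings, the brightest cluster, other filters, 2-fold, and other priors. Promoters came from RefSeq tables of GRCm38.p6.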

Additional observations from a re-analysis of the deposited data

Results flagged for a closer look

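Col1a2 stood on opposite sides of 0 in the tissues, each beyond the SD of the differences of all genes (0.259 in the shelves and 0.157 in the head). Its KO minus WT difference was 0.30 in the shelves and -0.17 in the head, 0.47 apart, and this difference between tissues was not tested, since each value is 1 array against 1. By its brighter transcript cluster alone the values were 0.15 and 0.06, on the same side.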

How the results depend on the processing

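No paired analysis was possible because each group is 1 array and the labels carry no replicate numbers to use as a block; the additive fit compares genotypes within tissue. The counts of 0 collagen genes for genotype, in either tissue and in the limma fit, stayed 0 under every alternative run, including 2-fold. Over all genes the smallest adjusted limma p for genotype was 0.172, and 11 genes, none a collagen, passed with a mean-variance trend and 150 with 1 common variance. The count for tissue and stage, 22 higher and 0 lower, ranged from 16 (upper-quartile filter, which tests fewer genes) to 23 (brightest cluster). Of 192 gene values recomputed, 11 missed the threshold and 0 changed sign. They concern Col7a1, Col9a2 and Col11a2, whose calls are thus marginal. With a mean-variance trend Col9a3 passed and Col7a1 did not. The median of a type rests on few genes. Without a filter the beaded filament median between shelves and head was 0.47. With the upper-quartile filter the FACIT medians were 0.74 between shelves and head and 0.064 for KO minus WT in the head, and the transmembrane median for KO minus WT in the shelves was 0.21. With means in place of medians, shelves minus head was 0.50 (network), 0.57 (FACIT), 0.84 (transmembrane) and 0.73 (beaded filament). The cause of these shifts was not tested beyond the genes each setting keeps. Dim genes near the limit for entry are the least certain.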
